A study of Mus musculus with 4 samples.

Results

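The genes examined were the alarmins *S100a8* and *S100a9*, the secondary granule genes *Ltf*, *Lcn2*, *Camp* and *Ngp*, and the primary granule genes *Mpo*, *Elane*, *Prtn3* and *Ctsg*. They were chosen by name for the granule or protein they encode, and they make up 10 of the 19491 genes listed in the 4 expression matrices. All 10 were listed in every library. The matrices came from single-cell RNA-seq of CD45+ hematopoietic cells of C57BL/6J mice aged 8 weeks, with dura mater and brain sorted as separate samples. The brain labels read CD45-+, and these cells were taken as CD45+ because *Ptprc* was widely detected. Mice had either undergone sham surgery (S3) or photothrombotic injury (PTI, a light-induced clotting of cortical and meningeal vessels through the skull) and were sampled at day 3 (D3). The labels name the controls only CT, which was read as sham from the study's description. Each combination of tissue and surgery was 1 library, so there were 4 libraries and no replicates. The number of mice behind a library was not given in the sources used here. Differences between S3 and D3 were therefore differences between libraries, and every interval given here is a 95% interval that covers counting error only.

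Neutrophils make their granule proteins in order as they develop. Promyelocytes make the proteins of primary (azurophil) granules, which are myeloperoxidase and the serine proteases neutrophil elastase, proteinase 3 and cathepsin G. Myelocytes and metamyelocytes make those of secondary (specific) granules, and the mRNAs fall away before the cell leaves the bone marrow, while the proteins stay stored. S100A8 and S100A9 are calcium-binding proteins that pair as calprotectin, fill the cytosol of neutrophils, and act outside the cell as alarmins. Among the secondary granule genes, *Ltf* encodes the iron-binding protein lactoferrin, *Lcn2* encodes lipocalin-2 (which binds bacterial iron carriers), *Camp* encodes the precursor of the antimicrobial peptide CRAMP, and *Ngp* encodes neutrophilic granule protein.

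The genes lay in a few chromosomal groups, given here on GRCm38. *S100a8* (chr3:90668978-90670035, plus strand) and *S100a9* (chr3:90692632-90695721, minus strand) were separated by 22596 bases. *Prtn3* (chr10:79874476-79883174) and *Elane* (chr10:79886247-79888215) lay on the same strand with 3072 bases between them. *Camp*, *Ngp* and *Ltf* shared chromosome 9, and *Lcn2*, *Mpo* and *Ctsg* lay alone on chromosomes 2, 11 and 14.

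Promoter sequences are shown for the alarmin pair and the protease pair because each pair is compared below, and for *Ngp* because it held the most matches to a C/EBP motif. They are RefSeq sequences (GRCm38.p6) from 250 bases before to 50 bases after the start annotated in RefSeq, read 5′ to 3′ on the strand of the gene. The gene positions above come from GENCODE, and the starts can differ. The windows of *Prtn3* and *Lcn2* lie inside the GENCODE gene. All 10 genes matched an entry. Capitals mark the letters TTNNGNAA, a form of the C/EBP motif, in the first 3 sequences, and GAGGAA, a form of the PU.1 motif, in the last 2. Both strands were searched.
*S100a8* (chr3:90668821-90669120, plus strand): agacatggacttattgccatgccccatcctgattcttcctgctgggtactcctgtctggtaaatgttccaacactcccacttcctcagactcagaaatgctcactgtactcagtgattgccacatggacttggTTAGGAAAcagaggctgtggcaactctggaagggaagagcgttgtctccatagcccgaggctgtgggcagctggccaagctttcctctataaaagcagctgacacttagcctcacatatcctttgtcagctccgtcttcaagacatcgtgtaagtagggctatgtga
*S100a9* (chr3:90695672-90695971, minus strand): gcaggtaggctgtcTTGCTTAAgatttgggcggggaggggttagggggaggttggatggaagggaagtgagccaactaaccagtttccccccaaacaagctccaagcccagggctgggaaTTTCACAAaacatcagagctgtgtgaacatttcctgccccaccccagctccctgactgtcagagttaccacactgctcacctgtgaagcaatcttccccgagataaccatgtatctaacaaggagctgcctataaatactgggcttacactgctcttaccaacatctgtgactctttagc
*Ngp* (chr9:110419558-110419857, plus strand): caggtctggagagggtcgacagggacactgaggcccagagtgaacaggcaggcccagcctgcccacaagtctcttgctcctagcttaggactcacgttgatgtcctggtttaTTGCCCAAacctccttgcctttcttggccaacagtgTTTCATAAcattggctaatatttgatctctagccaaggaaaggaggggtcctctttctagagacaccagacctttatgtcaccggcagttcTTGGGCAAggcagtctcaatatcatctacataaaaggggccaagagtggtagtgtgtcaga
*Prtn3* (chr10:79879417-79879716, plus strand): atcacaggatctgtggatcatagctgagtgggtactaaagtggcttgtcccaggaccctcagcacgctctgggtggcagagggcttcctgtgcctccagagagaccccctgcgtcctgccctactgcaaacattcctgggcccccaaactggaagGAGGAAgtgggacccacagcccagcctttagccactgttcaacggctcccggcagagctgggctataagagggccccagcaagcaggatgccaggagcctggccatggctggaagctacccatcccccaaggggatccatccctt
*Elane* (chr10:79886062-79886361, plus strand): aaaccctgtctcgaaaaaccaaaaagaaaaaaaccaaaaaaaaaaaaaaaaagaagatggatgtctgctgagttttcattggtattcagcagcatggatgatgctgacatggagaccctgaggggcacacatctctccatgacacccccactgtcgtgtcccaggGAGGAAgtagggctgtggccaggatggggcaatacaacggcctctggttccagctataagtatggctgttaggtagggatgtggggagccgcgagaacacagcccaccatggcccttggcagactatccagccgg

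The C/EBP letters occurred in 5 of the 10 promoters (*S100a8*, *S100a9*, *Ngp*, *Ltf* and *Lcn2*) and in 40.7% of 32851 mouse promoters of the same length. They were in the windows of neither *Camp* nor the 4 primary granule genes. The PU.1 letters occurred in 7 of 10, which were the 4 primary granule genes, *S100a8*, *Lcn2* and *Ltf*, and in 28.3% of all promoters. The RUNX letters TGTGGT and the TATA letters TATAAA each occurred in 3 of 10, against 16.8% and 13.6% of all promoters. The C/EBP and PU.1 matches did not overlap in any of the 10 windows. A match describes the letters in this window and does not show that a factor binds there.

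After filtering, 3569 cells of S3 dura mater, 2668 of D3 dura mater, 3748 of S3 brain and 4601 of D3 brain were kept, with 40131578 to 76898277 unique molecular identifiers (UMIs, each standing for 1 captured mRNA molecule) per library. *Ptprc*, which encodes CD45, was detected in 92.0% to 95.6% of cells. Cells with microglial markers numbered 424 and 601 in the brain libraries and 5 and 8 in the dura mater libraries. No pair of libraries shared more than 0.229% of cell barcodes. Classes were gated on counts of detected marker genes, none of which was among the 10 genes, and 10.1% to 13.6% of cells that met the gates of more than 1 lineage were left out.

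Granulocyte precursors were gated first, on their own markers alone and without the granulocyte gate. Other cells with at least 7 of 13 granulocyte markers were split into immature neutrophils, mature neutrophils and an intermediate group. Immature neutrophils showed at least 6 of 8 markers such as *Chil3*, *Cd177* and *Itgb2l*, and mature neutrophils at least 7 of 10 such as *Cxcr2* and *Il1r2* with at most 3 immature markers. Immature neutrophils numbered 314 in S3 dura mater, 195 in D3 dura mater, 104 in S3 brain and 88 in D3 brain. Mature neutrophils numbered 227, 118, 274 and 175 in the same order. Precursors, with at least 6 of 8 markers such as *Ms4a3* and *Gfi1*, numbered 43, 18, 1 and 12. Levels are UMIs per 1000000 UMIs of the class (CPM) in a library. A 3′ UMI count is not divided by gene length, and different genes are not ranked by level here.

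**Figure D1:**
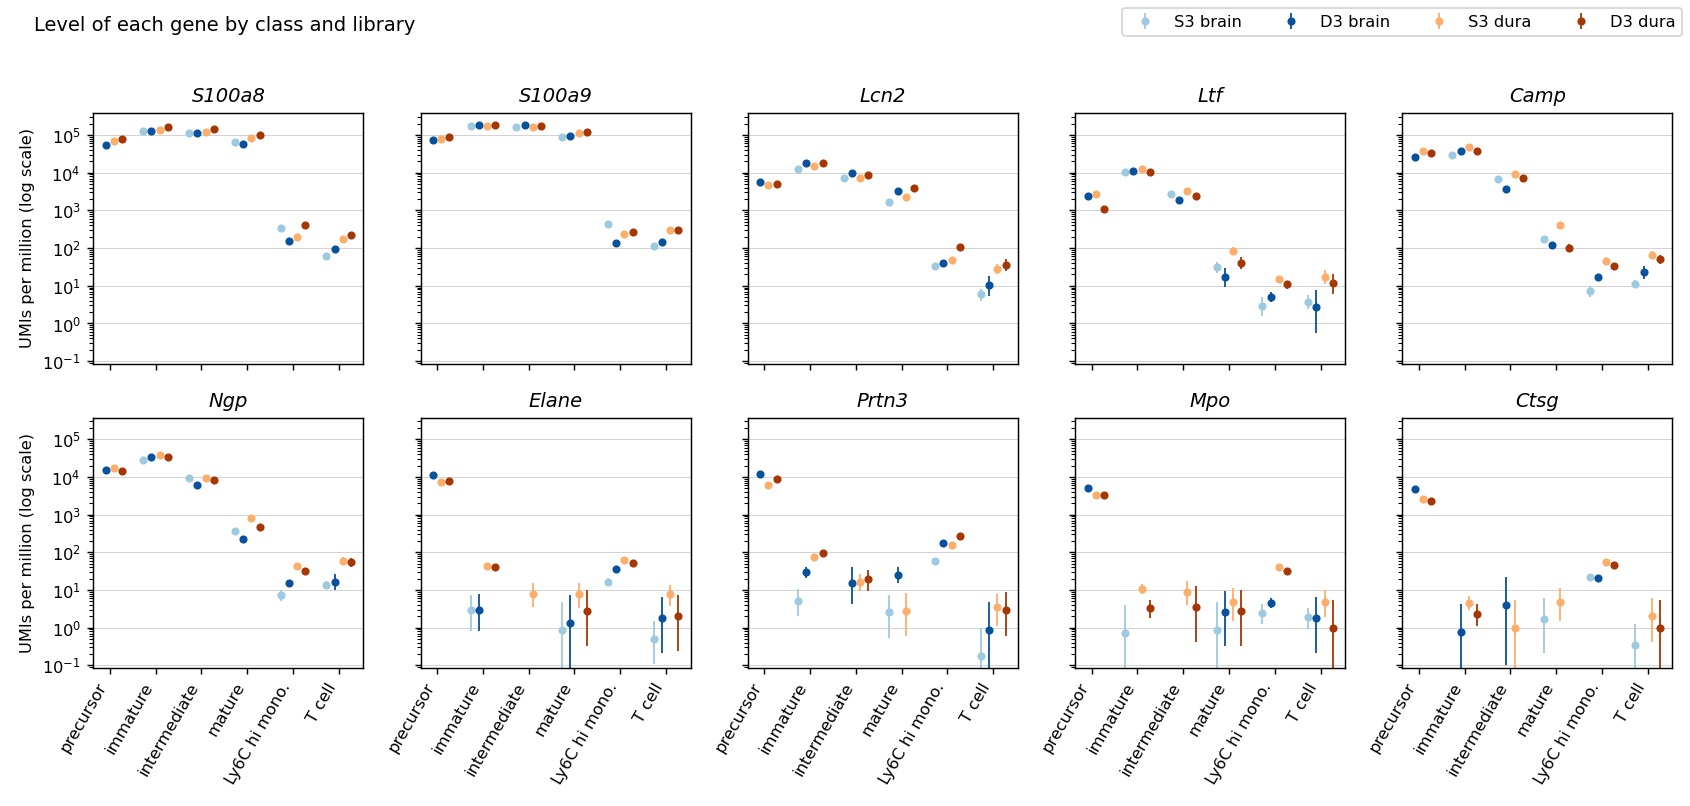
Level of each of the 10 genes, in CPM on a log axis, by cell class (horizontal, classes of at least 10 cells) and library (S3 light, D3 dark, dura mater orange to brown, brain blue), with points for libraries and bars for exact Poisson intervals of counting error (a level of 0 is not drawn on the log axis). The alarmin and secondary granule genes were highest in immature neutrophils, and the primary granule genes in the precursors.

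*S100a8* and *S100a9* took up a large part of the mRNA of immature neutrophils. Their summed share was 30.7% in S3 dura mater, 34.6% in D3 dura mater, 30.3% in S3 brain and 31.3% in D3 brain. In mature neutrophils it was 20.1%, 22.0%, 15.5% and 15.4%. The share was lower in mature than in immature cells of every library, and the mature cells of the 2 brain libraries sat below those of the dura mater libraries. The sum in mature neutrophils was lower in brain than in dura mater by a log2 difference of -0.37 (-0.38 to -0.36) at S3 and -0.52 (-0.53 to -0.51) at D3.

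After PTI the alarmin sum in mature neutrophils was slightly higher in the dura mater, with a log2 ratio of D3 to S3 of 0.13 (0.12 to 0.14), and was at -0.01 (-0.02 to 0.00) in the brain. *S100a8* stood at 84961 CPM in S3 dura mater, 100541 in D3 dura mater, 64574 in S3 brain and 57987 in D3 brain. *S100a9* stood at 115611, 119576, 90305 and 95846 CPM. The mature neutrophils of D3 dura mater were also deeper than those of S3 dura mater, with a median of 6200 against 4437 UMIs per cell. The ratio was also 0.13 among cells of both libraries within the same range of UMIs, which does not equalize depth inside that range.

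Mature neutrophils of D3 brain that carried a *Siglecf* UMI had low alarmin levels. *Siglecf* encodes a sialic acid-binding receptor best known from eosinophils. In these 44 cells *S100a8* was at 19829 CPM, *S100a9* at 32170 and *Lcn2* at 1098, against 67459, 111652 and 3915 CPM in the 131 mature neutrophils without it. In S3 brain the 15 cells with and the 259 cells without a *Siglecf* UMI had *S100a8* at 62383 and 64707 CPM. In the dura mater cells with a *Siglecf* UMI also had less *S100a8*, at 66643 against 85687 CPM in S3 (8 and 219 cells) and 74240 against 105150 CPM in D3 (19 and 99 cells). *Lcn2* was at 2856 against 4058 CPM in D3 dura mater. In both S3 libraries *Lcn2* was instead higher in cells with a *Siglecf* UMI. It was at 2558 against 2216 CPM in S3 dura mater and 2393 against 1650 CPM in S3 brain. Without the *Siglecf*-positive cells of both libraries the alarmin ratio in brain was 0.20 in place of -0.01.

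**Figure D2:**
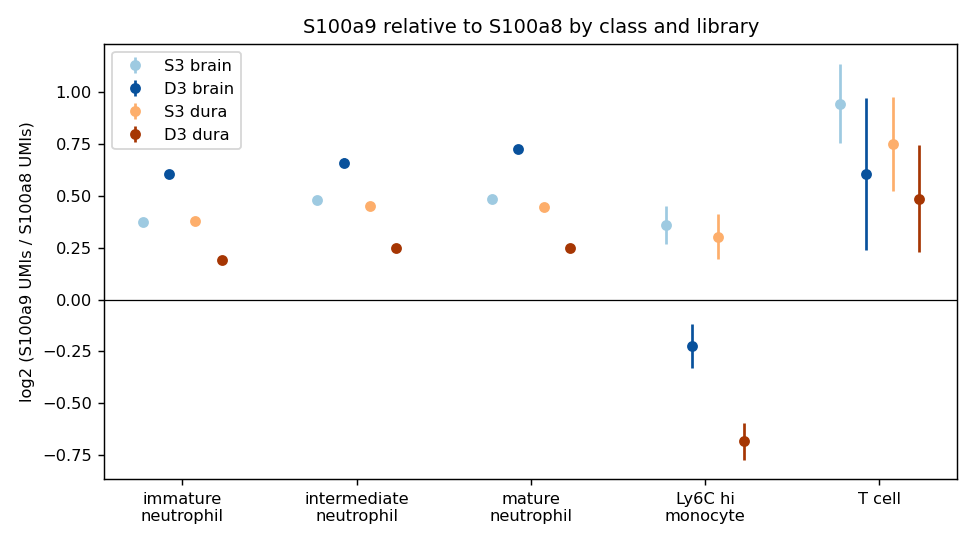
Log2 of *S100a9* UMIs per *S100a8* UMI (vertical) by cell class and library, with exact intervals of counting error. In every neutrophil class the ratio was highest in D3 brain, lowest in D3 dura mater, and close between the 2 S3 libraries.

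The 2 alarmin genes did not move by the same amount. In immature neutrophils there were 1.30 *S100a9* UMIs per *S100a8* UMI in S3 dura mater, 1.14 in D3 dura mater, 1.30 in S3 brain and 1.52 in D3 brain. In mature neutrophils the values were 1.36, 1.19, 1.40 and 1.65. The S3 libraries of the 2 tissues lay close together, and the D3 libraries lay on either side of them. *S100a8* in mature neutrophils had a log2 ratio of 0.24 (0.23 to 0.26) in the dura mater and -0.16 (-0.17 to -0.14) in the brain, whereas *S100a9* had 0.05 (0.04 to 0.06) and 0.09 (0.07 to 0.10). Free RNA, read in T cells, had an *S100a9* to *S100a8* ratio of 1.68 in S3 dura mater, 1.40 in D3 dura mater, 1.92 in S3 brain and 1.52 in D3 brain. Whether a property of the library, such as its amplification, set these ratios was not tested.

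The secondary granule genes marked the immature stage. In immature neutrophils *Camp* was at 47467 CPM in S3 dura mater, 38046 in D3 dura mater, 29729 in S3 brain and 37633 in D3 brain. *Ngp* was at 38945, 33897, 27962 and 33147 CPM, and *Ltf* at 12600, 10601, 10244 and 11429 CPM. For these 3 genes S3 dura mater was the highest library and S3 brain the lowest. *Lcn2* had another order, at 15490, 17775, 12706 and 18360 CPM, with both D3 libraries above both S3 libraries.

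The 4 secondary granule genes summed gave a D3 to S3 log2 ratio of -0.19 (-0.20 to -0.18) in immature neutrophils of the dura mater and 0.32 (0.31 to 0.33) in those of the brain. *Camp* had -0.32 in the dura mater and 0.34 in the brain, *Ngp* -0.20 and 0.25, and *Ltf* -0.25 and 0.16. These 3 genes thus had opposite directions in the 2 tissues in this class, and *Lcn2* was higher at D3 in both, at 0.20 and 0.53. In the intermediate group *Camp*, *Ngp* and *Ltf* were lower at D3 in both tissues. The median of all genes tested in these cells was -0.22 in the dura mater and -0.09 in the brain.

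Among the 10 genes, none with enough UMIs to be tested was 2-fold higher at D3 in immature neutrophils. In the dura mater 9 of the 10 reached 50 UMIs over both libraries, and *Mpo* was the 1 gene of them at least 2-fold lower, on few UMIs. Of all 6757 genes tested there, 0.888% were at least 2-fold higher and 2.43% at least 2-fold lower. In the brain none of 6 was called in either direction, where 2.39% of 3974 genes were higher and 3.7% lower. *Prtn3* was not among these 6, with 7 UMIs in S3 and 39 in D3 brain (5.16 and 29.5 CPM), a log2 ratio of 2.51 (1.34 to 3.92).

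**Figure D3:**
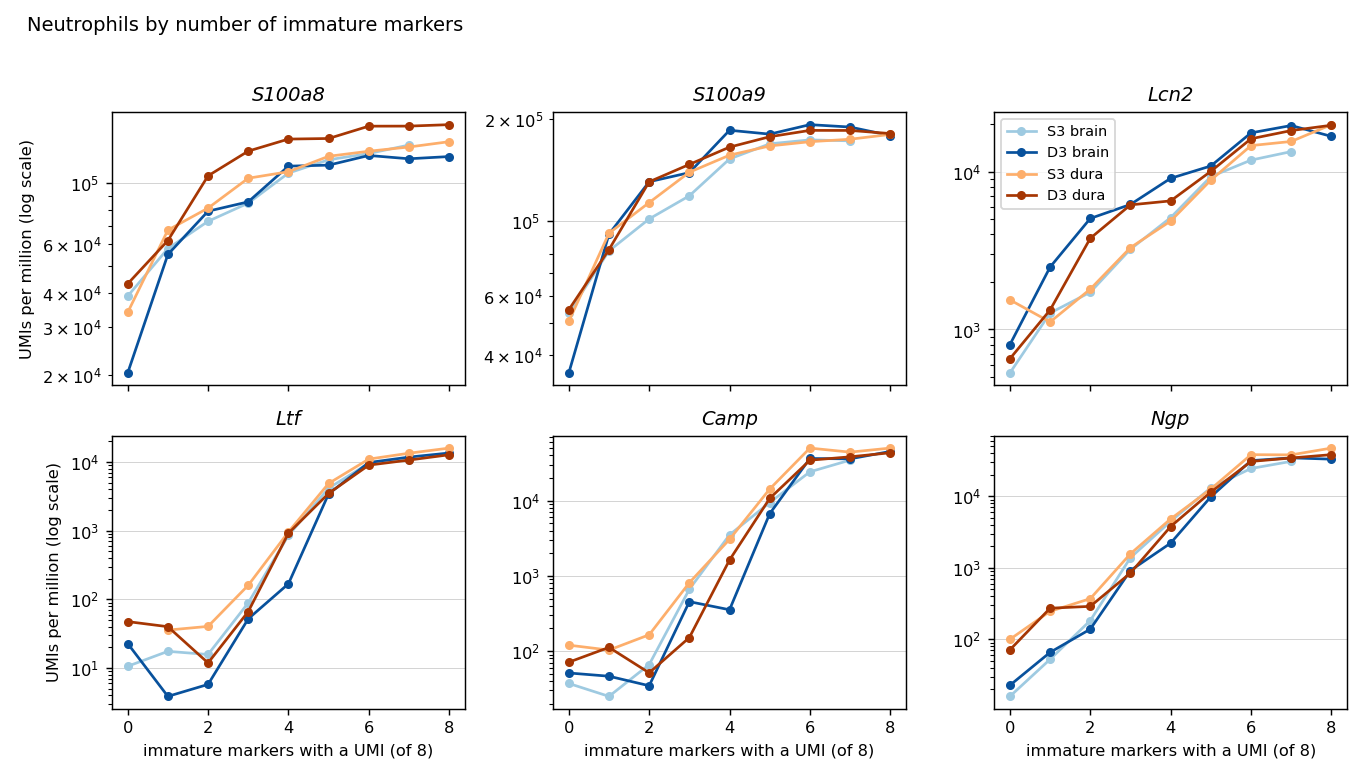
Levels of *S100a8*, *S100a9*, *Lcn2*, *Ltf*, *Camp* and *Ngp* (CPM, log axis) by the number of immature neutrophil markers a cell showed, 1 line per library. Marker counts with at least 10 cells are drawn. The secondary granule genes were far higher in cells with 6 or more markers than in cells with 2 or fewer, and *Lcn2* in D3 cells of 2 to 4 markers lay above S3 cells of the same count.

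Along the immature marker count the secondary granule genes fell by orders of magnitude, and the alarmins by much less. In S3 dura mater *Ltf* was at 16036 CPM in cells with all 8 markers, 4897 with 5, 960 with 4 and 40.4 with 2. *S100a8* over the same steps was at 141562, 125282, 110108 and 81176 CPM. *Lcn2* lay between these patterns, at 19810, 8822, 4859 and 1801 CPM. The markers that ordered these cells include secondary granule genes, such as *Mmp8* and *Chil3*, so the order of stages is partly built into the axis.

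In mature neutrophils *Lcn2* was higher after PTI in both tissues, while *Camp*, *Ngp* and *Ltf* were not. *Lcn2* was at 2229 CPM in S3 dura mater, 3879 in D3 dura mater, 1692 in S3 brain and 3354 in D3 brain. Its log2 ratio was 0.80 (0.72 to 0.88) in the dura mater and 0.99 (0.90 to 1.07) in the brain, and both D3 libraries lay above both S3 libraries. The ratio ran from 0.66 to 0.88 in the dura mater and from 0.92 to 1.25 in the brain over all alternative ways of counting.

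The higher *Lcn2* level was also seen among cells with the same immature marker count. With 2 markers it was 1801 CPM in S3 and 3779 CPM in D3 dura mater, and 1721 CPM in S3 and 5048 CPM in D3 brain. With 4 markers it was 4859 and 6519 CPM in the dura mater, and 5108 and 9061 CPM in the brain. With no immature marker, dura mater cells did not follow this order, at 1540 CPM in 14 S3 cells and 653 CPM in 20 D3 cells.

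The other secondary granule genes were low in mature neutrophils. *Camp* was at 409 CPM in S3 dura mater, 101 in D3 dura mater, 175 in S3 brain and 119 in D3 brain, with log2 ratios of -2.02 (-2.39 to -1.66) and -0.56 (-0.94 to -0.20). *Ngp* was at 813, 467, 368 and 226 CPM, with ratios of -0.80 (-0.98 to -0.62) and -0.70 (-0.97 to -0.44). *Ltf* was at 86.0, 41.0, 31.2 and 17.5 CPM, and its ratio of -0.83 in the brain had an interval of -1.87 to 0.11. All 3 genes thus had lower values at D3, and for *Ltf* in the brain the difference was within counting error. T cells of S3 dura mater had *Camp* at 67.4 CPM and *Ngp* at 60.4, which sets the level that free RNA alone gave there.

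Of the 6 genes testable in mature neutrophils of the dura mater, *Camp* and *Ltf* were at least 2-fold lower and none was at least 2-fold higher. Over all 3231 genes tested there, 3.59% were lower and 1.42% higher by that measure. In the brain none of 5 was called, against 4.75% of 3641 genes higher and 3.9% lower. *Lcn2* in the brain lay just under the 2-fold limit. The median of all genes was -0.14 in the dura mater and -0.07 in the brain.

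**Figure D4:**
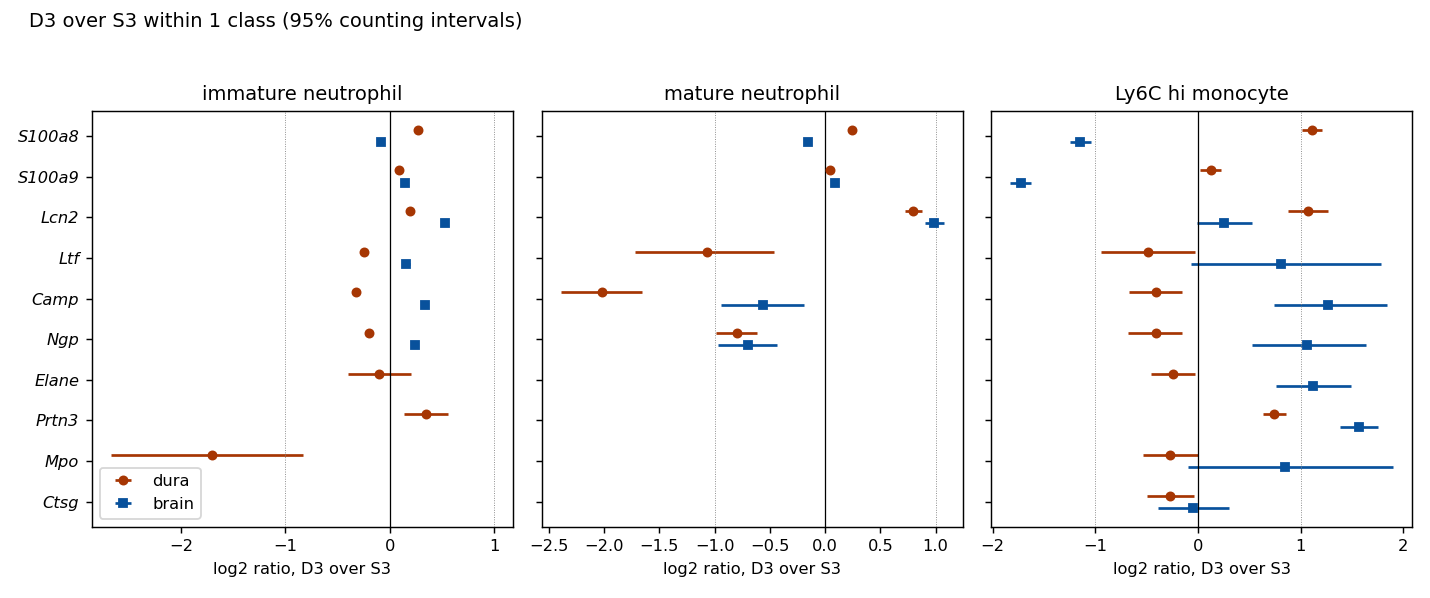
Log2 ratios of D3 to S3 with exact intervals of counting error for the 10 genes, by cell class and tissue (dura mater brown circles, brain blue squares), where both libraries together had at least 50 UMIs. *Lcn2* was above 0 in the neutrophil classes of both tissues, while *Camp*, *Ngp* and *Ltf* lay on opposite sides of 0 in immature neutrophils of dura mater and brain.

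The primary granule genes were highest in the granulocyte precursors, and these cells were rare. *Elane* was at 7304 CPM in the 43 precursors of S3 dura mater, 8026 in the 18 of D3 dura mater and 11387 in the 12 of D3 brain. *Prtn3* was at 6123, 9019 and 11948 CPM, *Mpo* at 3342, 3348 and 5221 CPM, and *Ctsg* at 2555, 2355 and 4693 CPM. In immature neutrophils *Elane* was at 43.6 CPM in S3 dura mater, 40.7 in D3 dura mater, 2.95 in S3 brain and 3.02 in D3 brain. The single precursor of S3 brain had *Ctsg* at 6392 CPM and *Mpo* at 2513 CPM, with *Prtn3* at 88.2 CPM and no *Elane* UMI. It also held 2209 UMIs of *Mcpt8*, a basophil protease gene, of 45369 in all, more than any other precursor, so its place among granulocyte precursors is doubtful. Of the precursors, 41 of 43, 16 of 18 and 11 of 12 also showed 3 or more of 5 proliferation markers.

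In dura mater precursors the 4 primary granule genes summed had a D3 to S3 log2 ratio of 0.24 (0.21 to 0.26). *Prtn3* had 0.56 (0.51 to 0.61), *Elane* 0.14 (0.09 to 0.18), *Mpo* 0.00 (-0.07 to 0.08) and *Ctsg* -0.12 (-0.20 to -0.03). *Ltf* was at least 2-fold lower, from 2678 to 1105 CPM, and was the 1 gene of 10 so called. Of 4270 genes tested, 3.23% were lower and 0.328% higher by that measure. These ratios rest on 18 and 43 cells, and cells that share a library are not replicates. Cells with B cell precursor markers numbered 115 in S3 and 10 in D3 dura mater, so both kinds of precursor were fewer in the D3 library. The source of these precursors within the dissected tissue was not tested.

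**Figure D5:**
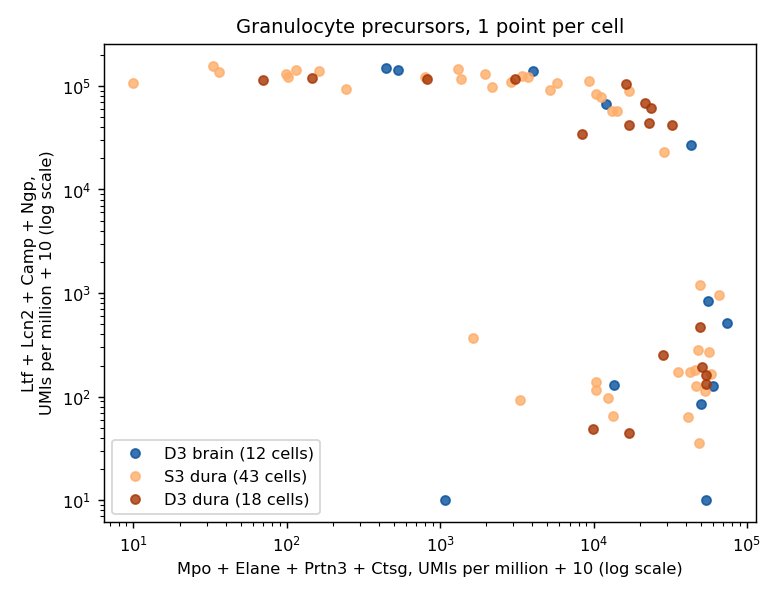
Summed primary granule genes against summed secondary granule genes in each granulocyte precursor of S3 dura mater, D3 dura mater and D3 brain, both in CPM of the cell, with cells marked by library. The single precursor of S3 brain is not drawn. Of all 74 precursors, including that cell, none had a secondary granule sum between 2000 and 20000 CPM, which left 33 cells below and 41 above.

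Single precursors fell into 2 kinds by their secondary granule genes. Of the 74 precursors of all libraries, 33 had a summed secondary granule level under 2000 CPM, 41 had one over 20000 CPM and 0 lay between. In S3 dura mater the 18 cells of the low kind had a median primary granule sum of 44174 CPM and a median alarmin sum of 4826 CPM. The 25 cells of the high kind had medians of 2169 and 251172 CPM, so the alarmins were high where the secondary granule genes were. D3 dura mater had 7 and 11 cells, with median primary granule sums of 49264 and 16166 CPM, and D3 brain had 7 and 5 cells, with 53946 and 4029 CPM. Cells with both programs were present: 9 of the 25 S3, 7 of the 11 D3 dura mater cells and 2 of the 5 D3 brain cells of the high kind had over 5000 CPM of the primary granule genes. At least 10 *Mcpt8* UMIs were found in 2 precursors of S3 dura mater, 1 of D3 dura mater, 1 of D3 brain and the single one of S3 brain. These limits were chosen after the values were seen and carry no test.

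Outside the neutrophil lineage, *Prtn3* stood well above the free RNA level in monocytes of all 4 libraries. In Ly6C hi monocytes, the inflammatory monocytes marked by *Ly6c2* and *Ccr2*, it was at 160 CPM (151 to 170) in S3 dura mater, 268 (255 to 281) in D3 dura mater, 60.8 (54.0 to 68.2) in S3 brain and 180 (172 to 188) in D3 brain. T cells of the same libraries had 3.47, 3.00, 0.173 and 0.886 CPM, and B cells 7.72, 18.4, 1.43 and 12.8 CPM. The D3 to S3 log2 ratio was 0.74 (0.63 to 0.85) in the dura mater and 1.56 (1.38 to 1.75) in the brain, so both D3 libraries lay above the S3 library of their tissue.

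A *Prtn3* UMI was found in 29.6% (25.1% to 34.5%) of Ly6C hi monocytes of S3 dura mater, 55.6% (49.98% to 61.1%) of D3 dura mater, 21.0% (16.4% to 26.1%) of S3 brain and 43.9% (39.8% to 48.1%) of D3 brain. With each cell thinned to 2000 UMIs these shares were 10.4%, 19.8%, 5.50% and 16.0%, with no cell left out, in the same order. In T cells the unthinned shares were 2.73%, 2.17%, 0.138% and 0.592%, at median depths of 6755, 6589, 7018 and 5857 UMIs, and the monocytes had medians between 14723 and 18350 UMIs. *Prtn3* was higher in cycling monocytes (3 or more proliferation markers) than in the others, at 450 against 25.1 CPM in S3 dura mater, 762 against 81.4 in D3 dura mater, 204 against 14.1 in S3 brain and 736 against 70.2 in D3 brain. Both groups of monocytes thus had more *Prtn3* at D3 than at S3 in each tissue.

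The other primary granule genes did not share the rise of *Prtn3* in the dura mater. *Elane* in Ly6C hi monocytes was at 62.8 CPM in S3 and 53.0 in D3 dura mater, and 16.3 in S3 and 35.3 in D3 brain. *Ctsg* was at 55.0, 45.6, 22.1 and 21.4 CPM, and *Mpo* at 39.7, 32.9, 2.51 and 4.51 CPM. The D3 to S3 log2 ratios in the dura mater were -0.25 (-0.46 to -0.03) for *Elane* and -0.27 (-0.50 to -0.04) for *Ctsg*. *Mpo* had -0.27 (-0.54 to -0.00) there, and in the brain *Elane* had 1.12 (0.76 to 1.49). Within cycling monocytes of the dura mater none of the 3 was lower at D3. *Elane* was at 178 CPM in S3 and 179 in D3, *Ctsg* at 155 and 158, and *Mpo* at 92.6 and 113. Infiltrating macrophages, gated on genes such as *Arg1* and *Gpnmb*, numbered 1094 in D3 brain and 2 to 9 in the other libraries, and in D3 brain they had *Prtn3* at 21.8 CPM and a UMI in 30.0% (27.3% to 32.8%) of cells. Thinned to 2000 UMIs the share was 4.21%, against 0.0876% in T cells and 3.00% in B cells of that library. The B cells rest on 4 UMIs in 69 cells (12.8 CPM, 3.498 to 32.9), an interval that includes the macrophage level, so the macrophage value is not read as above free RNA. Dura mater mast cells, whose granules hold proteases of the same family, had *Ctsg* at 30.8 CPM (20.5 to 44.5) in S3 and 70.1 (54.9 to 88.3) in D3, against 2.08 and 1.001 CPM in T cells. Mature neutrophils of D3 brain had 19 *Prtn3* UMIs in 175 cells (25.6 CPM, 15.4 to 40.0), which lay above T cells but within the interval of those B cells, whereas those of D3 dura mater had 0 UMIs in 118 cells, which allows a share of up to 2.54% of cells with a UMI at this depth and sets no limit on cells that express the gene.

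In Ly6C hi monocytes outside S3 brain *S100a9* did not exceed the T cell level, while *S100a8* did so in both D3 libraries. The direction of both genes in the brain rested on 1 cell. *S100a8* was at 194 CPM in S3 dura mater, 418 in D3 dura mater, 350 in S3 brain and 158 in D3 brain, and T cells had 179, 218, 59.96 and 93.9 CPM. In S3 brain 1 monocyte held 3009 of the 3823 alarmin UMIs. Without monocytes that showed 6 or more granulocyte markers, *S100a8* was at 138, 342, 71.3 and 156 CPM, and the brain log2 ratio of D3 to S3 went from -1.15 to 1.13. *S100a9* was then at 219, 244, 94.8 and 138 CPM, against 299, 305, 115 and 143 CPM in T cells. *S100a8* in D3 dura mater was then at 342 CPM (324 to 360), against 218 (190 to 249) in T cells. In D3 brain it was at 156 CPM (147 to 165), against 93.9 (76.9 to 114) in T cells. B cells of D3 brain had 116 CPM (80.9 to 160), an interval that includes the monocyte level. In D3 dura mater 28 monocytes had at least 20 alarmin UMIs, and in 0 of them was *S100a9* the higher, against 88.8% of the 116 mature neutrophils of that library.

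*Lcn2* in Ly6C hi monocytes was at 49.7 CPM in S3 and 105 in D3 dura mater, and at 34.5 in S3 and 41.1 in D3 brain, where T cells had 28.5, 36.0, 5.87 and 10.6 CPM. Without monocytes that showed 6 or more granulocyte markers it was at 29.5 and 70.5 CPM in the dura mater, and 11.2 and 32.2 CPM in the brain. S3 dura mater was then at the T cell level and the brain log2 ratio went from 0.25 to 1.53. B cells left without such cells had 9.32 CPM (6.09 to 13.7) in S3 and 16.0 (5.21 to 37.5) in D3 brain. These intervals include the brain monocyte values, which are not read as above free RNA. *Camp* and *Ngp* were at or below the T cell level in all 4 libraries, so their values in monocytes are not read as expression. Of the 10 genes in dura mater monocytes, *S100a8* and *Lcn2* were at least 2-fold higher and none lower, where 1.45% of 9198 genes were higher and 1.08% lower. In the brain *Camp*, *Ngp*, *Elane* and *Prtn3* were higher and *S100a8* and *S100a9* lower, where 5.09% of 9248 genes were higher and 3.57% lower. For *Camp*, *Ngp* and the alarmins these brain counts rest on free RNA or on the single cell named above.

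Free RNA of the alarmins was present in every library. B cells, which should lack them, had *S100a8* at 453 CPM in S3 dura mater, 5282 in D3 dura mater, 115 in S3 brain and 116 in D3 brain. In D3 dura mater 1 B cell held 56.4% of the alarmin UMIs of its class, and in S3 dura mater 1 held 54.9%. Without these cells the summed alarmins of B cells were still at 5091 CPM in D3 dura mater and at 531 in S3 dura mater. T cells had 524 and 478 CPM. In D3 dura mater 2 B cells had at least 20 alarmin UMIs. The median B cell had *S100a8* at 182, 217, 0 and 0 CPM. *S100a8* was at 57987 CPM or more in both neutrophil classes of every library. In T cells no single cell held more than a small share of these UMIs, so the T cell value is used as the free RNA level of D3 dura mater.

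Other granule genes were examined from 8 lists with 58 genes in all, which covered the granule types, their transcription factors, protease inhibitors, receptors and other S100 genes. In immature neutrophils none of the 43 testable genes in the dura mater and none of the 36 in the brain differed 2-fold between D3 and S3. In mature neutrophils 3 of 31 were lower and 0 higher in the dura mater, and 1 of 31 was lower and 4 higher in the brain. The background shares are those given for each class above.

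The NADPH oxidase gene *Cybb* was lower in mature neutrophils of both tissues, from 367 to 105 CPM in the dura mater (log2 ratio -1.80) and from 202 to 101 CPM in the brain (-1.0003). The chitinase-like gene *Chil3*, also an immature marker, was higher in the brain, from 26.0 to 174 CPM (2.74), and at -0.97 in the dura mater. In the dura mater *Cd63*, a membrane protein of primary granules, had -1.11 and the lysosomal enzyme gene *Gusb* -1.13. In the brain *Ctsc*, whose product activates the granule serine proteases, had 1.24, the S100A9 receptor gene *Bsg* 1.24 and *S100a4* 1.29.

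In Ly6C hi monocytes 3 of 40 list genes were higher and 1 lower in the dura mater, and 4 were higher and 3 lower in the brain. *Cd63* had log2 ratios of 1.51 in the dura mater and 4.40 in the brain, and the gelatinase gene *Mmp9* had 1.28 and 3.51. The granule transcription factor gene *Cebpe* was lower in both, at -1.08 and -1.42. In dura mater precursors 1 of 36 was higher, *S100a6* at 1.23, and 1 lower, *Adam8* at -1.96.

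Genes whose pattern most resembled each group were found by Pearson correlation of log2 levels with the mean log2 level of the group's genes. It was taken over 48 class-by-library units of at least 20 cells. These units share libraries and free RNA, so the coefficients are descriptions. Nearest to the alarmin mean were *Wfdc21* (0.985), *Ly6g* (0.969) and *Chil1* (0.966). Nearest to the secondary granule mean were *Itgb2l* (0.976), *Adpgk* (0.961) and *4930438A08Rik* (0.945). Nearest to the primary granule mean, at lower values, were *Ms4a3* (0.700), *Fcnb* (0.682) and *Ctdspl* (0.663). With units of at least 50 cells, 44 remained and none held precursors. Of the 5 genes nearest to the primary granule mean 1 was then shared, and *Ms4a3* and *Fcnb* dropped out. For the alarmins 3 were shared and for the secondary granule genes 4. *Ly6g*, *Itgb2l*, *Ms4a3* and *Fcnb* were themselves gate markers. Among the 10 genes, *Lcn2* was closer to *S100a8* (0.990) than to *Ltf* (0.908), *Camp* (0.905) or *Ngp* (0.945), whereas *Camp* and *Ngp* were at 0.988 with each other. *Elane* and *Prtn3* were at 0.824, and *Ctsg* and *S100a8* at 0.0079.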

How the data were processed

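CD45+ cells were sorted, and the authors built 10x 3′ v3 libraries, aligned reads to mm10 with Cell Ranger 3.1.0 and used Seurat 3.1.0, per the labels and the study's methods. The deposited values are natural log values, ln(1 + UMIs of the gene / UMIs of the cell x 10000), and they list genes found in at least 3 cells. Whole UMI counts were recovered from them for 100% of values (relative tolerance 1e-06). The kept cells had over 1000 and under 6000 genes detected, and mitochondrial genes gave no more than 7% of their UMIs. Cells were gated by the number of markers detected. Cells meeting gates of more than 1 lineage were left out as possible doublets, and no doublet caller was run. Marker lists were written out before gating, the numbers of markers needed were set after their counts were seen, and the genes and lists were chosen with earlier results of these data known. Members of the 3 groups were named in every class, with list genes named at 2-fold, at most 4 a list.

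UMIs were summed per class and library and given per 1000000 with exact Poisson intervals, shares with exact Clopper-Pearson intervals, and ratios of 2 Poisson counts with intervals from the exact binomial split of their sum, all at 95%. A count of 0 allows 3 counts. No ratio is given where both counts were 3 or fewer. With 1 library per group no test across libraries was possible, and called means at least 2-fold among genes with at least 50 UMIs over both libraries. Shares were thinned to 2000 UMIs as an expected value. Alternatives changed the cell filter, the gates, the treatment of mixed and deep cells, the weighting of cells, the free RNA and the denominator. The steps were tested on simulated data. Python 3.11.15, numpy 2.4.6, scipy 1.17.1 and pandas 2.3.3 were used. Positions come from GENCODE vM21 and promoters from RefSeq.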

Additional observations from a re-analysis of the deposited data

Results flagged for a closer look

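Several genes had opposite directions in dura mater and brain for the same D3 to S3 comparison within a cell class, which is what set them apart here. With 1 library per group the difference between the tissues was not tested. In mature neutrophils *S100a8* had a log2 ratio of 0.24 in the dura mater and -0.16 in the brain, and in immature neutrophils 0.27 and -0.083. In immature neutrophils *Ltf* had -0.25 in the dura mater and 0.16 in the brain, *Camp* -0.32 and 0.34, and *Ngp* -0.20 and 0.25. The intermediate group did not show these opposite directions. There *Ltf* had -0.38 in the dura mater and -0.50 in the brain, *Camp* -0.42 and -0.87, and *Ngp* -0.15 and -0.57. *S100a8* had 0.29 and -0.0007 (-0.02 to 0.02) in that group.

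In Ly6C hi monocytes *S100a8* had 1.11 in the dura mater and -1.15 in the brain, and *S100a9* had 0.12 and -1.73. These brain values rest on 1 cell of S3 brain. *Camp* had -0.41 in the dura mater and 1.27 in the brain, and *Ngp* -0.41 and 1.06, both at levels that T cells of the same library also had. *Elane* had -0.25 in the dura mater and 1.12 in the brain. It was much higher in cycling monocytes, at 178 CPM in S3 and 179 in D3 dura mater, and 62.8 in S3 and 191 in D3 brain. The other monocytes had 9.19 and 5.40 CPM in the dura mater, and 1.11 and 4.66 in the brain. The lower *Elane* value at D3 in the dura mater was thus not seen within the cycling cells.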

How the results depend on the processing

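No paired analysis was possible because each group was 1 library. Matched depth here means that cells of both libraries were kept within the same range of UMIs, which does not equalize depth inside that range. Thinning each cell to 2000 UMIs does not change the expected fraction of its UMIs, so that setting repeats the mean over cells and is not listed apart. The alarmin sum in mature neutrophils of the dura mater (0.13) was 0.10 without a filter on cells and 0.19 with 1 more marker required. It was 0.0091 with mixed cells kept, 0.058 as a mean over cells and 0.066 with the B cell level subtracted. It was 0.17 without the 10 genes in the denominator and 0.17 without cells carrying a *Siglecf* UMI. In the brain (-0.01) the same sum was -0.061, -0.065, -0.094 and -0.079 under the first 4 of these, 0.027 at matched cell depth and 0.20 without *Siglecf*-positive cells. The secondary granule sum in immature neutrophils of the dura mater (-0.19) was -0.11 with 1 more marker and -0.31 with mixed cells kept. It was -0.21 without the deepest cells, -0.20 as a mean and -0.24 with B cells subtracted. It was -0.13 with the other denominator and -0.46 at matched depth. In the brain (0.32) it was 0.18, 0.35, 0.40 and 0.33 under the first 4 of these, 0.39 with the other denominator and 0.33 at matched depth. The primary granule sum in dura mater precursors (0.24) was 0.49 without a filter, 0.12 with 1 more marker and 0.27 with mixed cells kept. It was 0.58 without the deepest cells, 0.33 as a mean and 0.27 with the other denominator.

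Direction changed for *S100a8* in mature neutrophils of the brain without *Siglecf*-positive cells (0.060). It changed for *S100a9* in mature neutrophils of the dura mater with mixed cells kept (-0.068), as a mean (-0.020) and with B cells subtracted (-0.018), and in the brain with mixed cells kept (-0.0033). In Ly6C hi monocytes of the brain *S100a8* went to 3.03 with 1 more marker, 0.94 with mixed cells kept, 0.99 without the deepest cells, 1.09 at matched depth, 1.13 without cells of 6 or more granulocyte markers and 0.75 without cycling cells. *S100a9* went to 3.04, 1.07, 0.58, 0.44, 0.54 and 0.20, and in the dura mater to -0.016 without cycling cells. *Lcn2* in Ly6C hi monocytes of the brain (0.25) kept its direction and ran from 0.090 to 2.88. The cause was not tested except for the single cell of S3 brain. Subtracting the T cell level, matched depth and leaving out *Siglecf*-positive, granulocyte-marked or cycling cells were chosen after seeing the data. A D3 to S3 comparison of brain precursors was not made, since S3 brain held 1 such cell. With at least 200 in place of 50 UMIs fewer genes were tested, and 16 of 1168 were 2-fold higher in mature neutrophils of the dura mater against 46 of 3231, with 26 against 116 lower. The counts were 40 of 1305 higher and 40 lower in mature neutrophils of the brain (173 and 142 of 3641), 18 and 18 of 3586 in immature neutrophils of the dura mater (60 and 164 of 6757) and 19 and 42 of 1341 in those of the brain (95 and 147 of 3974). They were 65 and 28 of 6237 in Ly6C hi monocytes of the dura mater (133 and 99 of 9198), 262 and 152 of 6313 in those of the brain (471 and 330 of 9248), and 3 and 19 of 1266 in dura mater precursors (14 and 138 of 4270). Low counts limit *Mpo*, *Ctsg*, *Elane* and *Prtn3* in neutrophils, where most values rest on fewer than 50 UMIs.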
